A study of Mus musculus with 23 samples.

Results

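Transcripts of 10 genes of the crypt base stem cell were followed in scrapings of the mouse small intestine, out of 21477 genes measured on the array. The genes were Lgr5, Rnf43, Znrf3, Axin2, Tnfrsf19, Ascl2, Sox9, Olfm4, Smoc2 and Cdca7, found by their gene names in the scanner files. They were chosen by earlier results of the same data, so the differences, correlations and trends below describe them and are not independent tests. The samples came from 23 male adult C57BL/6J mice, each on 1 array. After 3 weeks on normal-fat food, all mice were put on high-fat food for 12 weeks, which was given alone in 12 mice (HF) or with 0.33% quercetin, a plant flavonol, by weight in 11 mice (HF-Q). They were fasted for 2 to 4 h before tissue was taken. Of 24 mice at the start, a quercetin-fed mouse with an abscess had been left out by the authors. RNA of each mouse was labelled with Cy5 and hybridised with a Cy3-labelled equimolar pool made from every mouse. Each value is a log2 ratio of the mouse to that pool. Dyes were not swapped, so a difference between the dyes can remain in the ratio of a gene. A value of 0 is therefore not exactly the pool level of that gene, and values are compared between mice. A scraping is a bulk sample that holds villus, crypt and some underlying wall.

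Stem cells at the base of the intestinal crypt divide and replace the epithelium, and they lie between Paneth cells, which make antimicrobial peptides and stem cell growth factors. Their upkeep depends on Wnt ligands, which keep beta-catenin from being degraded so that it can activate genes together with TCF/LEF factors. R-spondins, bound by Lgr5, strengthen this signal by clearing the ubiquitin ligases Rnf43 and Znrf3, which otherwise take the Wnt receptors of the Frizzled family off the cell surface. Axin2, Rnf43, Znrf3, Lgr5, Tnfrsf19, Ascl2 and Sox9 are known as Wnt target genes in this tissue, and several of them act back on the pathway.

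The start regions of the genes are shown because several of the genes moved together over the mice and are textbook Wnt targets. RefSeq promoters (assembly GRCm38.p6, 250 bases before to 50 after the transcript start) were at hand for 6 of the 10 genes, as 8 promoters. Both strands were searched for the TCF/LEF letters CTTTGAT or CTTTGAA and for the E-box CAGCTG, the kind of site that Ascl2 binds. Those found are in capitals in the sequences below, which run from 5′ to 3′ on the strand of the gene.
Ascl2 (chr7:142969215-142969514, minus strand): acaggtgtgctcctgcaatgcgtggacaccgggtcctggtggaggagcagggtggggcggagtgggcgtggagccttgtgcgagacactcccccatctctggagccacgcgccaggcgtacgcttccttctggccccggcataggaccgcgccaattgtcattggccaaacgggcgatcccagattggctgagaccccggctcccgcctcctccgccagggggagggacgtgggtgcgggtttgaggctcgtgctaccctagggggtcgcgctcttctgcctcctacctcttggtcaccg
Axin2 (chr11:108920099-108920398, plus strand): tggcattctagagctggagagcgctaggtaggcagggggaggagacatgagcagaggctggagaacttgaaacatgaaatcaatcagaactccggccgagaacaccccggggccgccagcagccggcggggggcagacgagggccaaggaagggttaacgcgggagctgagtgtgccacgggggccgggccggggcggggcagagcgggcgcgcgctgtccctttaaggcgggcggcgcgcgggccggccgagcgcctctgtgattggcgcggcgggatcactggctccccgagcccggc
Olfm4 (chr14:80000052-80000351, plus strand): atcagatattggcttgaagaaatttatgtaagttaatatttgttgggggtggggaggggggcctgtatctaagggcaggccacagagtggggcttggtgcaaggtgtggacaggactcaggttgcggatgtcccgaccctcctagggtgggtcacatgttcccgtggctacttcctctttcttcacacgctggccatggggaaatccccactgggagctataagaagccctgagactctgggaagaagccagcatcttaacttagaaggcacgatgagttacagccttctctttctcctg
Tnfrsf19 (chr14:61037938-61038237, minus strand): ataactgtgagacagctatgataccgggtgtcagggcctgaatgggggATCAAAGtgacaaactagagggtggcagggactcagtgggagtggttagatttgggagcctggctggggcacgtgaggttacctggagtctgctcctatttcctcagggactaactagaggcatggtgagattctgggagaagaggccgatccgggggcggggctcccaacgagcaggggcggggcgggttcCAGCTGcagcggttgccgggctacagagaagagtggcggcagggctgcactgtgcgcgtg
Of the 8 promoters, 1 held a TCF/LEF match, the second promoter of Tnfrsf19, on its minus strand at position -202 with the start base counted as 0. The same promoter held the only E-box of the 8, at -10. Over all 32851 RefSeq promoters of this length, 8.65% held the TCF/LEF letters and 16.3% the E-box. Sequence outside these windows and other forms of the sites were not searched. A promoter without a match thus does not show that its gene lacks such sites. The GC content of the printed Ascl2 and Axin2 promoters was 67.0% and 70.0%, that of Olfm4 52.3%, and the median of all promoters was 52.7%. No entry was found for Lgr5, Smoc2, Znrf3 and Sox9.

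The array carried 13 probes for the 10 genes, and 11 of them passed the filter on low signal (signal clearly over background on 50% or more of the HF or of the HF-Q arrays). All 10 genes kept a probe. The probes used for 9 genes were well above background on all 23 arrays. The Znrf3 probe was above background on 7 HF and 4 HF-Q arrays, so its values lie near the detection limit. It passed the filter through the HF arrays alone. A second Lgr5 probe was above background on 0 arrays and a second Tnfrsf19 probe on 1. All 12 markers of enterocytes, the absorptive cells of the villus, were measured. One protocol label names liver as the tissue, against the other labels. Among hepatocyte genes, 0 arrays showed Ahsg or Mup3 above background, and 2 showed Fgb or Hpx. The rest of that list was seen more widely, with Tat and Apoh detected on all 23 arrays and Alb on 11. The hepatocyte counts thus differ between genes. The Paneth cell genes Lyz1, Defa5, Defa26 and Itln1 were above background on all 23 arrays.

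The first question was whether quercetin in the food changed these genes. None of the 10 genes passed the threshold (limma over all 21477 genes, Benjamini-Hochberg adjusted p under 0.05; the lowest adjusted p of the 10 was 0.951), and of all genes 0 passed (0%). Of the 10, 3 were higher and 7 lower with quercetin, a split that turned with scaling and with single mice: 6 were higher with median centring, and 1 to 7 with each mouse left out in turn (7 without HF-Q mouse 1, 6 without HF-Q mouse 2). The median difference of the 10 was -0.034 on the log2 scale, against -0.0038 over all genes tested. Values below are log2 ratios to the pool, with the SE of the fit for each difference.

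Lgr5, the R-spondin receptor that defines these stem cells, was read by a probe at chr10:114887403-114887462 (mm9, minus strand). In HF mice Lgr5 ran from -0.40 to 0.64 with a median of 0.18, and in HF-Q mice from -1.02 to 0.43 with a median of 0.094. The ranges overlapped over most of their length, and the low end in HF-Q came from the mice numbered 1 to 3. The difference was -0.24 ± 0.17 (SE, n = 12 and 11), the largest of the 10, with a 95% interval of -0.58 to 0.11. In bulk tissue, fewer stem cells and less Lgr5 RNA per cell cannot be told apart, and this holds for every gene here.

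Rnf43 and Znrf3 are the paired ligases that remove Frizzled receptors. The Rnf43 probe lies at chr11:87548958-87549017 (mm9, plus strand). Rnf43 ran from -0.16 to 0.35 in HF mice (median 0.13) and from -0.39 to 0.15 in HF-Q mice (median -0.023), a difference of -0.15 ± 0.067 (SE). The groups overlapped, but 1 of the 11 quercetin-fed mice exceeded the median of HF. The Znrf3 probe lies at chr11:5180918-5180977 (mm9, minus strand), and Znrf3 ran from -0.35 to 0.17 in HF mice (median -0.018) and from -0.44 to 0.16 in HF-Q mice (median -0.18). Its difference was -0.15 ± 0.064 (SE), and again 1 of the 11 quercetin-fed mice exceeded the median of HF. The Znrf3 probe passed the filter only through HF, the diet where it was higher, so its difference is no support for an effect of quercetin. The Znrf3 difference depended on the source of the values, at -0.017 ± 0.063 in the Cy5 channel alone and -0.43 ± 0.17 in the authors' log10 ratio. These were the 2 of the 10 genes with an unadjusted p under 0.05, a level that 973 of all genes (4.53%) also reached, and both had an adjusted p of 0.951.

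Axin2, the scaffold of the beta-catenin destruction complex that Wnt signalling itself induces, was read at chr11:108812034-108812093 (mm9, plus strand). It ran from -0.45 to 0.42 in HF mice (median 0.086) and from -0.22 to 0.34 in HF-Q mice (median 0.090), and the HF-Q range lay inside the HF range. The difference was 0.073 ± 0.10 (SE). Tnfrsf19, the TNF receptor family member also called Troy, was read at chr14:61582873-61582932 (mm9, minus strand). It ran from -0.57 to 0.39 in HF mice (median 0.21) and from -0.65 to 0.40 in HF-Q mice (median 0.017), a difference of -0.055 ± 0.12 (SE).

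Ascl2 and Sox9 are transcription factors, Ascl2 a basic helix-loop-helix factor needed for stem cell fate and Sox9 an HMG-box factor of crypt cells that Paneth cells also need. The Ascl2 probe lies at chr7:150152734-150152793 (mm9, minus strand). Ascl2 had the widest spread of the 10 in HF-Q mice, from -0.99 to 0.90 (median 0.32), beside -0.69 to 0.75 in HF mice (median 0.076). Its difference was 0.014 ± 0.21 (SE). The Sox9 probe, at chr11:112648809-112648868 (mm9, plus strand), is printed 10 times on each array. Sox9 ran from -0.61 to 0.44 in HF mice (median 0.073) and from -0.71 to 0.47 in HF-Q mice (median 0.19), a difference of -0.013 ± 0.14 (SE). For both factors each diet held mice at either end of the range.

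Olfm4 and Smoc2 code for secreted proteins, Olfm4 for a glycoprotein abundant in these stem cells and Smoc2 for a calcium-binding matrix protein. The Olfm4 probe lies at chr14:80421398-80421457 (mm9, plus strand). Olfm4 ran from -0.59 to 0.57 in HF mice (median 0.16) and from -1.15 to 0.41 in HF-Q mice (median 0.16), a difference of -0.057 ± 0.18 (SE). The medians of the diets were alike, and the lowest value was that of HF-Q mouse 2. Smoc2, at chr17:14541664-14541723 (mm9, plus strand), ran from -1.01 to 0.60 in HF mice (median 0.092) and from -1.07 to 0.44 in HF-Q mice (median 0.13), a difference of 0.0042 ± 0.20 (SE). Cdca7, a Myc-responsive partner of the chromatin remodeller Hells, was read at chr2:72324849-72324908 (mm9, plus strand). Cdca7 ran from -0.50 to 0.69 in HF mice (median 0.14) and from -0.56 to 0.55 in HF-Q mice (median 0.20), a difference of -0.0066 ± 0.14 (SE).

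**Figure D1:**
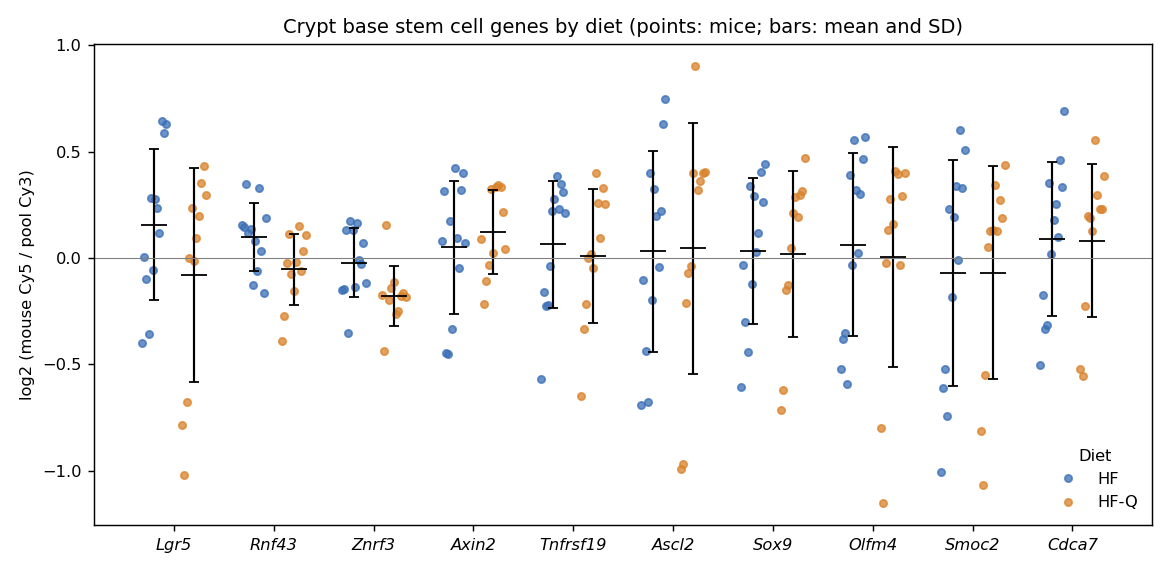
Log2 ratio of each mouse to the pool (y axis) for the 10 genes (x axis), HF in blue and HF-Q in orange, with the mean and SD of each diet as black bars. The diets overlap for every gene, and Ascl2, Olfm4 and Smoc2 spread over more than Rnf43 and Znrf3 do.

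The 95% intervals show the width that these numbers of mice leave. Each is for a single gene and is not adjusted for the number of genes or for how the genes were chosen. For Smoc2 the interval of the difference was -0.41 to 0.42 and for Ascl2 -0.41 to 0.44, while for Rnf43 it was -0.29 to -0.013. Rnf43 was not called after adjustment over all genes, so its interval does not establish a decrease. The Znrf3 interval, -0.29 to -0.023, comes from a probe that passed the filter only through HF, and nothing is read from it. A miss of the threshold therefore does not show that the diets gave equal levels. Markers of underlying tissue leaned to lower values with quercetin, with 0 genes called. All 8 smooth muscle genes were lower (median -0.22), as were all 7 fibroblast genes (median -0.31) and all 10 pancreatic acinar genes (median -0.55). Of 8 Paneth cell genes 7 were lower (median -0.096), beside 11159 of all 21477 genes. Some SEs exceeded the difference, as in Cnn1 (-0.33 ± 0.40) and Amy2a5 (-0.72 ± 1.08), while Col1a1 was at -0.37 ± 0.17. The genes of a list were read in the same mice, so their directions are not separate observations. With the smooth muscle and acinar list means as covariates, 6 of the 10 genes were higher and 4 lower with quercetin, with 0 called. The Lgr5 difference was then -0.085 ± 0.11 (SE). The part of these tissues in the differences of the 10 genes was not tested.

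Most of the genes varied widely between mice of the same diet, with an SD of up to 0.53 in HF (Smoc2) and 0.59 in HF-Q (Ascl2), and this variation ran with the replicate number in the sample titles (1 to 12 in HF, 1 to 11 in HF-Q). The labels do not say what the number stands for. With diet and number in 1 fit, 7 of the 10 genes were higher with a higher number at an adjusted p under 0.05: Smoc2, Ascl2, Lgr5, Olfm4, Sox9, Cdca7 and Tnfrsf19. Over all genes 28.2% were called in either direction, 17.1% higher and 11.1% lower, and since the genes were picked with this relation known, their count is a description beside that background. The median change of the 10 was 0.89 on the log2 scale per 10 numbers, against -0.022 over all genes.

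The fitted change of Smoc2 was 1.30 ± 0.16 (SE) on the log2 scale per 10 numbers, or 2.45-fold. Its lowest values were those of HF mouse 1 and HF-Q mouse 2, and its highest those of HF mouse 10 and HF-Q mouse 11. Ascl2 changed by 1.22 ± 0.19, or 2.34-fold, with the lowest value at number 1 in both diets. Lgr5 changed by 1.06 ± 0.14, or 2.08-fold, and Olfm4 by 1.04 ± 0.18, or 2.05-fold. Thus the receptor, a transcription factor and both secreted products moved by similar amounts. Sox9 changed by 0.89 ± 0.12 and Cdca7 by 0.88 ± 0.12, or 1.86-fold and 1.84-fold. Tnfrsf19 changed by 0.76 ± 0.099, or 1.69-fold. The order of the 7 depended on the source of the values, since Tnfrsf19 changed by 1.44 ± 0.17 and Smoc2 by 1.33 in the authors' log10 ratio, and Ascl2 was steeper than Smoc2 with median centring, in the Cy5 channel alone and in the authors' log2 table.

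The Wnt feedback genes Axin2, Rnf43 and Znrf3 were the 3 genes that did not pass. Axin2 was called as well with slide as a block (0.38 ± 0.14) and without HF mouse 2, and Znrf3 in the Cy5 channel alone (0.24 ± 0.083). The fitted change per 10 numbers was 0.31 ± 0.15 (SE) for Axin2, 0.069 ± 0.10 for Rnf43 and 0.044 ± 0.096 for Znrf3. Axin2 was lowest in HF mouse 4 and highest in HF mouse 7, Rnf43 lowest in HF-Q mouse 1 and highest in HF mouse 3. A second Axin2 probe (chr11:108803927-108803986, mm9, plus strand), also above background on all 23 arrays, correlated with the number at -0.599, where the probe used gave 0.406, and the probes correlated with each other at 0.123. The direction for Axin2 therefore differs between its probes.

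**Figure D2:**
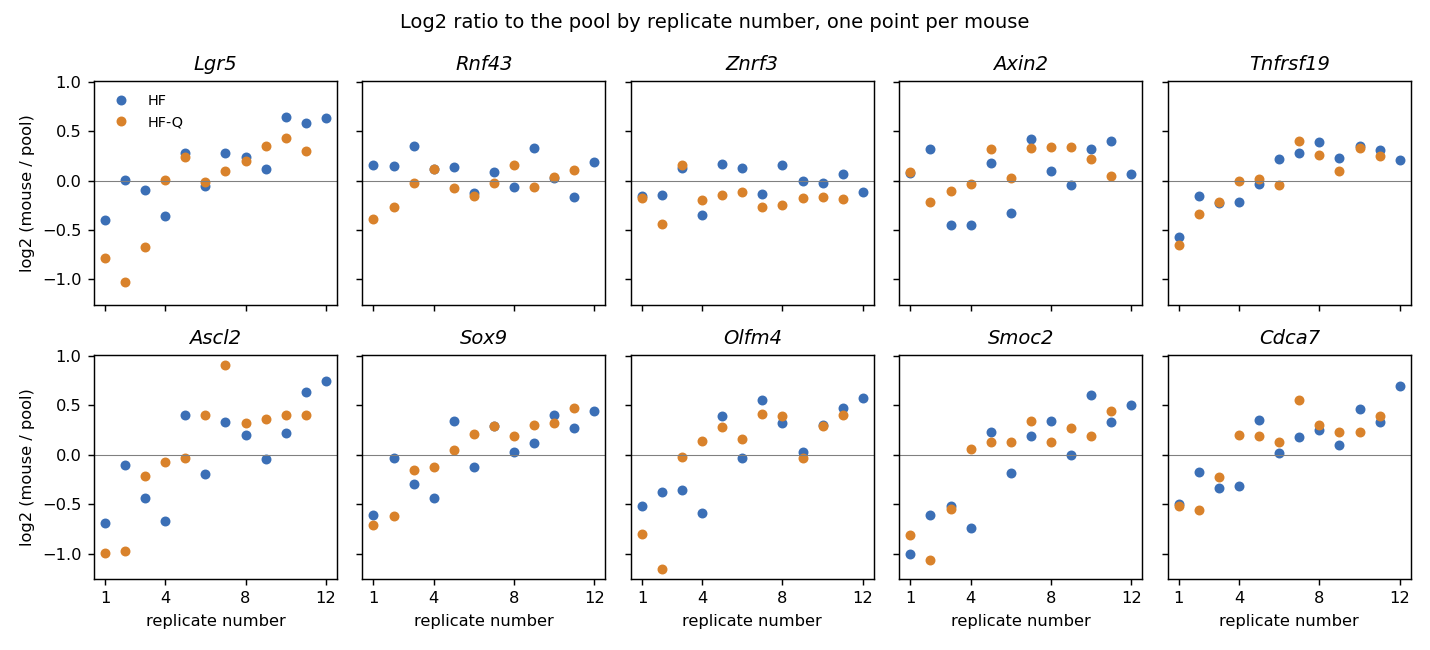
Log2 ratio to the pool (y axis) against replicate number (x axis), 1 panel per gene and 1 point per mouse, HF in blue and HF-Q in orange. In Lgr5, Tnfrsf19, Ascl2, Sox9, Olfm4, Smoc2 and Cdca7 the mice with the lowest numbers lie lowest in both diets, while Znrf3 shows no such order and Rnf43 none in HF.

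The mean of the 10 genes shows the order over the mice. In HF mice numbered 1 to 4 the mean was -0.42, -0.11, -0.22 and -0.40, and in those numbered 9 to 12 it was 0.080, 0.33, 0.32 and 0.39. In HF-Q mice numbered 1 to 4 the mean was -0.58, -0.67, -0.20 and 0.0062, and in those numbered 8 to 11 it was 0.20, 0.17, 0.23 and 0.26. The lowest values thus stood at the lowest numbers in both diets, and from number 5 on the mean stayed between -0.068 and 0.39. Over the 23 mice, with diet means taken off, this mean correlated with the number at a Pearson r of 0.847 and a Spearman rho of 0.876. The r was 0.815 without the 2 mice whose numbers lay farthest from the median. It was 0.848 in HF and 0.857 in HF-Q, and 0.845, 0.921 and 0.805 within the 3 array slides (n = 8, 7 and 8 mice). Each slide held mice of both diets, and between slides 0 of the 10 genes and 0 of all genes (0%) were called, with 1064 genes at an unadjusted p under 0.05. In mice numbered 5 and above alone, an alternative chosen after seeing the data, 0 of the 10 genes were called and the changes of the 7 ran from 0.22 (Olfm4) to 0.67 (Lgr5) per 10 numbers.

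Within HF mice alone the change per 10 numbers was 0.85 ± 0.15 (SE) for Lgr5, and within HF-Q mice 1.32 ± 0.22. For Smoc2 the values were 1.31 ± 0.19 and 1.28 ± 0.24, and for Olfm4 0.97 ± 0.20 and 1.13 ± 0.31. The largest gap between the diets was that of Rnf43, -0.14 ± 0.13 in HF and 0.34 ± 0.13 in HF-Q, with a difference in slope of 0.48 ± 0.18 (SE). A slope that differed between diets was called for 0 of the 10 genes and for 0 of all genes (0%), with 1898 genes and, among the 10, Rnf43 alone at an unadjusted p under 0.05. With the number in the fit, the diet difference of Lgr5 was -0.18 ± 0.094 (SE) and that of Smoc2 0.069 ± 0.10. The SE of Smoc2 was 0.20 without the number, and in both fits 0 genes were called for diet.

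The genes also moved together from mouse to mouse. With diet means taken off, the 45 pairs among the 10 genes had a median Pearson r of 0.600 over 23 mice. That median was 0.288 with the mean of a gene's probes, which alters Axin2 alone, and 0.346 with smooth muscle and acinar means as covariates. The 21 pairs of the same 7 genes ran from 0.813 to 0.966 with a median of 0.909, and the highest was Smoc2 with Cdca7. Axin2, by 1 of its 2 disagreeing probes, correlated with the 7 at 0.435 to 0.621, Rnf43 at 0.161 to 0.288 and Znrf3 at 0.167 to 0.363. Among themselves Axin2, Rnf43 and Znrf3 gave -0.078 to -0.0099. The genes were selected partly on this co-variation, so it describes them and is no check of the name of the set. These correlations are descriptions over shared arrays, with the pool and the hybridisation in common.

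**Figure D3:**
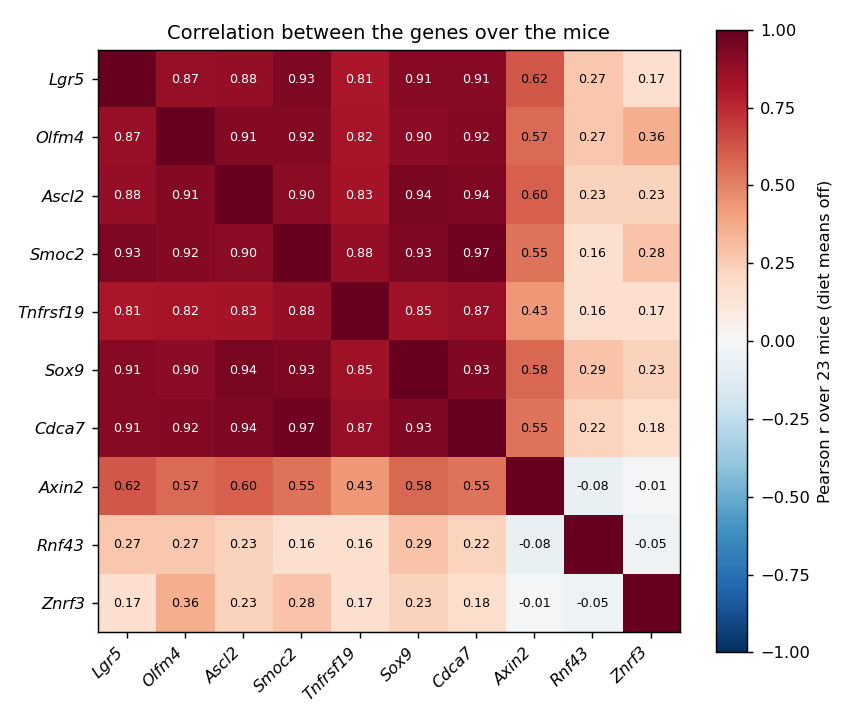
Pearson r between each pair of the 10 genes over 23 mice after the diet means were taken off, in a colour scale from -1 to 1 with r written in each cell. The block of 7 genes lies at 0.81 and above, and the rows of Rnf43 and Znrf3 are pale.

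Part of the shared variation was the trend with number. With the slope on number also taken off, the 21 pairs of the 7 genes kept r between 0.315 and 0.876, with a median of 0.704. Against the mean of the other 9 genes, Cdca7 correlated at 0.959, Smoc2 at 0.958 and Sox9 at 0.957. Without the slope on number those values were 0.856, 0.852 and 0.850. Tnfrsf19 lost more, from 0.857 to 0.501, so more of its shared variation lay along the number.

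The arrays also show spot and hybridisation noise, which leaves out dissection, extraction and the labelling of each mouse. The 10 Sox9 spots of an array had an SD of 0.042 to 0.14 (median 0.095), whereas the Sox9 mean had an SD of 0.37 over mice. The Cy3 channel holds the same pool on every array. The SD of log2 Cy5 was 11.6 times that of Cy3 for Smoc2, 9.82 times for Olfm4, 8.75 times for Sox9 and 6.69 times for Ascl2. For Znrf3 the ratio was 0.820, with an SD of 0.12 in Cy5 and 0.15 in Cy3, so its spread between mice did not exceed that of the pool. For Axin2 the ratio was 2.14. The median SD over all genes was 0.16 in Cy5 and 0.080 in Cy3.

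Of 15136 genes with a RefSeq name ranked by likeness to the mean of the 10 (the genes themselves left out), the most alike were Lyz1 (r = 0.985, 18 mice with a value) and Slc12a2 (0.984). Lyz1 codes for the lysozyme of Paneth cells and Slc12a2 for the sodium, potassium and chloride cotransporter of crypt cells. Hmgn1 (0.976), Svep1 (0.974), Defa23 (0.973), Defa27 (0.973), Fbxo21 (0.971), Sox4 (0.971), Defa26 (0.970, 20 mice) and Itln1 (0.970) followed. Defa23, Defa26 and Defa27 are Paneth cell alpha-defensins whose near-identical copies 1 probe may not separate, and Itln1 is a lectin of the same granules. These genes changed with the number by 0.80 (Fbxo21) to 2.08 (Lyz1) on the log2 scale per 10 numbers. The least alike were Smdt1 (-0.902), Cst6 (-0.880), Smim20 (-0.876), Slc35e4 (-0.863) and Rnasek (-0.862). High likeness was common, since 19.1% of all genes had r above 0.5 with the mean of the 10 and 13.5% had r below -0.5.

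For Lgr5 alone the most alike genes were Pla2g4a (0.953), Morc4 (0.947), Pls3 (0.946), Dek (0.945) and Pxdn (0.939). For Olfm4 alone they were Lyz1 (0.968), Defa26 (0.961), Mcm6 (0.946), Itln1 (0.944) and Defa-ps1 (0.943). Of these 5, Lyz1, Defa26, Itln1 and Defa-ps1 are genes of Paneth cell products or their copies, and Mcm6 is a replication factor. Lgr5 and Olfm4 correlated with each other at 0.871.

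Further genes of the stem cell and of the Wnt pathway were taken from lists, which were also drawn up with earlier results known. Of 21 measured genes of the crypt base stem cell other than the 10, 15 were called higher and 2 lower with the number. Among all genes 17.1% were called higher and 11.1% lower. By direction alone 18 of the 21 were higher and 3 lower, with a median of 0.58 on the log2 scale per 10 numbers. Slc12a2 changed by 1.34 ± 0.18 (SE), Kcne3, a potassium channel subunit, by 1.15 ± 0.21, Myb, a transcription factor of crypt progenitors, by 1.10 ± 0.15, and Dach1, a nuclear cofactor, by 0.89 ± 0.12. Lrig1, a brake on ErbB signalling, changed by 0.74 ± 0.13. Gkn3, Fstl1, Slc14a1, Cd24a, Prom1, Nav1, Rgmb, Aqp4, Mex3a and Zbtb38 were also higher, by 0.31 (Zbtb38) to 0.99 (Gkn3). The 2 called lower were Msi1, an RNA-binding protein, which fell by 0.25, and Pdgfa, a growth factor, which fell by 0.24. Bmi1, Soat1, Hopx and Ets2 were not called, and Bmi1 and Hopx are known for reserve stem cells. The list mean correlated with the mean of the 10 genes at 0.981. The mean of all genes tested correlated with it at 0.548, a value to set beside each list correlation here.

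Of 12 measured Wnt and R-spondin receptors, 4 were called higher (Fzd9, Fzd2, Fzd6 and Ror2) and Lrp5 was called lower. The median was 0.056, and of all genes 17.1% were called higher and 11.1% lower. Fzd9, a Frizzled receptor, changed by 1.17 ± 0.17 (SE) and correlated with the mean of the 10 at 0.954. Lgr4, the wider-expressed relative of Lgr5, had a change of 0.23 ± 0.11 and was not called. The co-receptor Lrp6 (-0.27 ± 0.12) and Fzd7 (-0.024 ± 0.10) were not called either. Of 15 genes of beta-catenin turnover and transcription, Tcf7, Pygo2 and Dvl2 were called higher, Csnk1a1 was called lower and 11 were not called. Their median was -0.0024. Ctnnb1, beta-catenin itself, had a change of -0.0024 ± 0.072 and Apc, its negative regulator, of -0.19 ± 0.097. That is 4 of 15 called, beside 28.2% of all genes, with members going both ways.

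Of 13 measured Wnt target and feedback genes other than the 10, by direction 9 were higher and 4 lower, with a median of 0.18. Beside 17.1% of all genes called higher and 11.1% lower, 6 of the 13 were called higher and 1 lower. The 6 were Myc (1.06 ± 0.16, SE), Ccnd1 (0.98 ± 0.25), Sox4 (0.96 ± 0.12), Dkk3 (0.93 ± 0.13), Nkd1 (0.88 ± 0.13) and Cd44 (0.39 ± 0.10). Myc and Ccnd1 drive cell growth and the cell cycle, Sox4 is a transcription factor, Nkd1 a Dishevelled inhibitor and Cd44 a surface glycoprotein of crypt cells. Ephb2, a receptor that sorts crypt cells, fell by 0.20. Notum (-0.14 ± 0.14) and Sp5 (-0.29 ± 0.11) were not called, nor were Wif1, Nkd2, Tiam1 and Ephb3.

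Of 14 measured niche ligands and their partners, 9 were called higher and 1 lower, beside 17.1% and 11.1% of all genes. By direction 11 were higher and 3 lower, with a median of 0.36. Wnt3, the Wnt of Paneth cells, changed by 0.64 ± 0.17 (SE) and Egf by 0.21 ± 0.049. Rspo3, an R-spondin of mesenchymal cells, changed by 0.57 ± 0.10, Grem1, a BMP antagonist, by 1.14 ± 0.22 and Wnt5a by 0.76 ± 0.11. Bmp4, Bmp5, Wnt4 and Foxl1 completed the 9, and Nog, a BMP antagonist, fell by 0.31. The Notch ligands Dll1 and Dll4 were not called. The Egf probe was above background on 9 arrays and the Rspo3 probe on 15, so their values are near the detection limit.

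**Figure D4:**
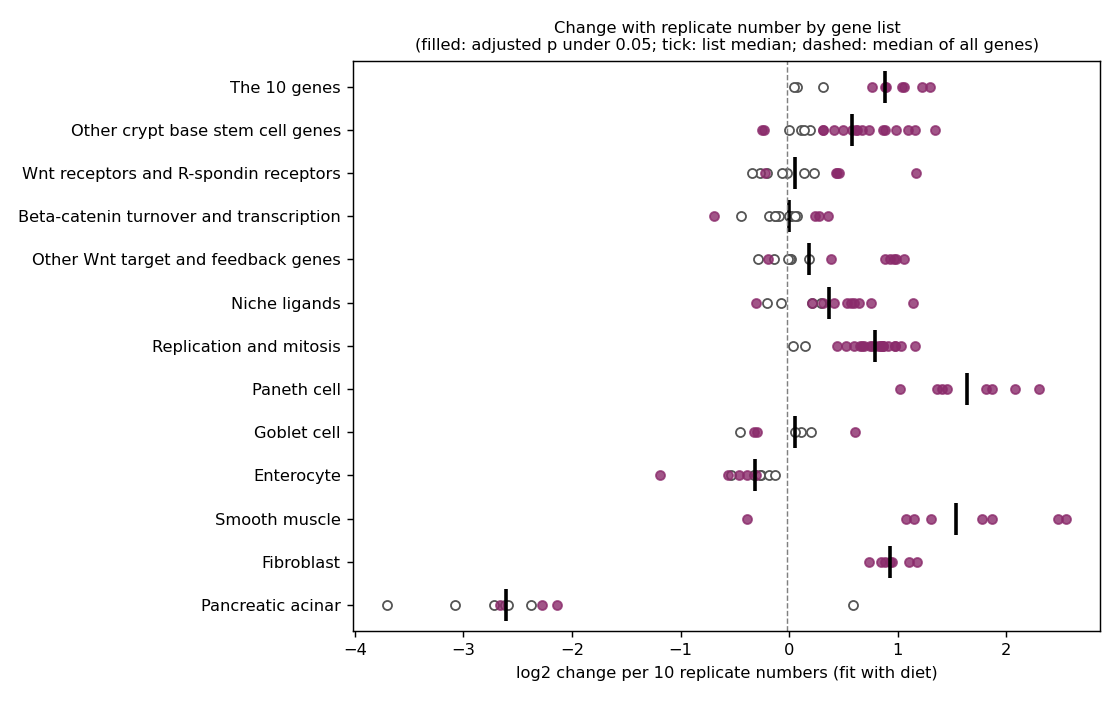
Log2 change per 10 replicate numbers from the fit with diet (x axis) for the genes of each list (rows), filled where the adjusted p was under 0.05, with a tick at the list median and a dashed line at the median of all genes, -0.022. The 10 genes, the other stem cell genes, replication and mitosis, Paneth cell, smooth muscle and fibroblast lists lie to the right, and the enterocyte and acinar lists to the left.

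Genes of DNA replication and mitosis, which mark dividing cells of the crypt, moved with the 10. Of 21 measured, 19 were called higher with the number and 0 lower, beside 17.1% and 11.1% of all genes. All 21 had a change above 0, with a median of 0.79, and the list mean correlated with that of the 10 at 0.947. Mcm5, a subunit of the replicative helicase, changed by 0.74 ± 0.10 (SE), Mcm3 by 0.91 ± 0.13, Mcm7 by 0.84 ± 0.094 and Mki67, the proliferation antigen, by 1.03 ± 0.16. The others called, Mcm2, Mcm4, Mcm6, Uhrf1, Cdk1, Rrm2, Top2a, Ccna2, Aurka, Plk1, Ccnb1, Ccnb2, Birc5, Hells and Bub1, changed by 0.44 (Mcm2) to 1.16 (Uhrf1). Pcna (0.14 ± 0.074) and Tyms (0.035 ± 0.078) were not called. In the diet comparison 20 of the 21 were higher with quercetin, with a median of 0.069 and 0 called, beside 10318 of all 21477 genes higher.

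Markers of other cell types moved along with these genes as well. All 8 measured Paneth cell genes were called higher with the number, beside 17.1% of all genes, with a median of 1.63 per 10 numbers. Lyz1 changed by 2.08 ± 0.37 (SE), Defa5 by 2.30 ± 0.36, Itln1 by 1.81 ± 0.29 and Mmp7, a defensin-processing protease, by 1.46 ± 0.27. Defa26, Pla2g2a, Ang4 and Nupr1 made up the 8. The Paneth list mean ran from -1.16 to 0.81 in HF mice and from -1.56 to 0.65 in HF-Q mice, and correlated with the mean of the 10 at 0.953. Of 12 enterocyte genes 0 were called higher and 5 lower, beside 17.1% and 11.1% of all genes. All 12 had a change below 0, with a median of -0.32. Among those called lower, Apoa4, a chylomicron apolipoprotein, fell by 1.19, Apoa1 by 0.56, Mttp, the lipid transfer protein, by 0.46 and Vil1, villin, by 0.39. Alpi, the brush border phosphatase, had a change of -0.32 ± 0.15 and was not called. The enterocyte list mean correlated with the mean of the 10 at -0.755 and ran from -0.11 to 0.57 in HF mice and from -0.22 to 0.41 in HF-Q mice. Stem, Paneth and dividing cell genes were thus higher, and several enterocyte genes lower, in the mice with higher numbers.

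Markers of the intestinal wall below the epithelium showed the same order. Of 8 smooth muscle genes 7 were called higher and 1, Mylk, was called lower, with a median of 1.54. Over all genes 17.1% were called higher and 11.1% lower. Cnn1, calponin, changed by 2.55 ± 0.31 (SE), Actg2, enteric actin, by 2.47 ± 0.31 and Acta2 by 1.87 ± 0.21. Synpo2, Tagln, Des and Myh11 changed by 1.08 (Tagln) to 1.78 (Synpo2), and Mylk fell by 0.39. The list mean ran from -0.73 to 1.09 in HF mice and from -1.38 to 0.78 in HF-Q mice and correlated with the mean of the 10 at 0.834. All 7 measured fibroblast genes were higher, among them Col3a1 (1.18 ± 0.16) and Dcn (1.11 ± 0.17) beside Col1a1, Col1a2, Col6a1, Pdgfra and Lum (0.73 to 0.95), with a list mean correlated at 0.826. Of 10 pancreatic acinar genes, Cel, Cela2a and Cela1 were called lower and 0 higher. By direction 9 were lower and 1 higher, Clps, colipase, with a change of 0.59 ± 0.24. The acinar list mean ran from -3.11 to 1.71 in HF mice and from -3.21 to 2.08 in HF-Q mice, the widest of the lists. It correlated with the mean of the 10 at -0.361. The part of these other tissues in the result on the 10 genes was not tested. With the smooth muscle and acinar list means as covariates, 0 of the 10 genes and 30 of all genes were called for the number. The fitted changes of the 7 then ran from 0.43 ± 0.33 (Olfm4) to 1.04 ± 0.30 (Smoc2). The smooth muscle mean itself correlated with the number at 0.835, so this fit cannot separate the number from that mean.

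**Figure D5:**
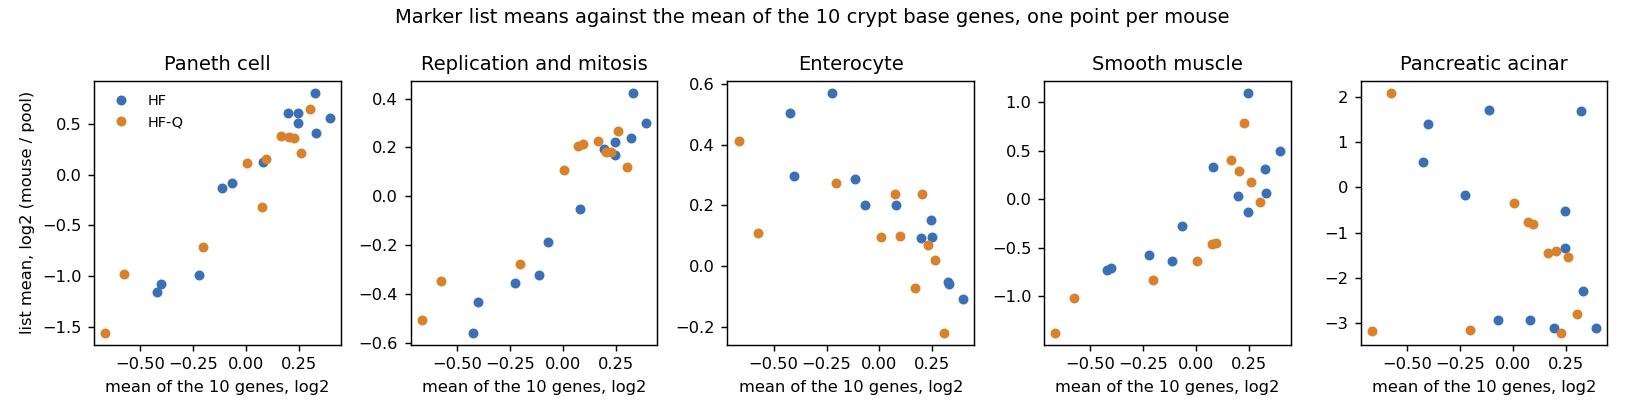
Mean log2 ratio of 5 marker lists (y axes) against the mean of the 10 crypt base genes (x axes), 1 point per mouse, HF in blue and HF-Q in orange. The Paneth cell, replication and smooth muscle lists rise along the x axis, the enterocyte list falls, and the acinar list scatters between -3.21 and 2.08.

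In the remaining lists, higher and lower mean called in that direction. The counts stand beside 17.1% of all genes called higher and 11.1% lower, and nothing is read from them. Of 7 goblet cell genes 1 was higher (Spink4, 0.60 ± 0.15) and 2 were lower (Zg16 and Tff3), while Agr2 and Spdef were not called. Of 8 enteroendocrine genes Tac1 was higher (0.62 ± 0.13) and the hormone genes Sct and Gip were lower, and Gcg was not called. Of 8 tuft cell genes 0 were higher and 2 lower (Sh2d6 and Avil), with Gfi1b, Pou2f3 and Dclk1 not called. Of 6 endothelial genes 3 were higher (Cdh5, Vwf and Emcn), and Kdr was not called. Of 7 genes of B and plasma cells 3 were higher (Jchain, Mzb1 and Pou2af1), and Cd79a was not called. Of 7 T cell genes Cd4 was lower (-0.34 ± 0.094), and Cd3e, Cd8a and Cd3g were not called. Of 4 neutrophil genes Elane was lower, and S100a9, Camp and Ltf were not called. Of 7 genes of the proximal small intestine Ada was lower (-0.49 ± 0.17), and Cyp2b10, Fabp1 and Lct were not called. Of 6 genes of the distal small intestine 0 were called in either direction, among them Slc10a2, Fabp6, Nts and Fgf15, and likewise 0 of the 3 measured hepatocyte genes (Alb, Tat and Apoh). The goblet cell list mean correlated with that of the 10 at 0.075 and the distal list mean at 0.139. No gene of any list was called for diet.

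The share of genes called higher with the number depended on scaling. It was 60.6% of the called genes after loess, and 83.2% when arrays were centred on their median instead. In the authors' log2 table it was 40.2%, where the median of all genes also shifted to -0.11 per 10 numbers. There, 9 of the 10 genes kept a change above 0, and Rnf43 was at -0.015. Relative to the median of all genes, the 7 called genes were higher under each of these scalings.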

How the data were processed

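RNA from small-intestinal scrapings of 23 mice was read on 2-colour Agilent arrays, 200 ng per mouse per the labels' protocols. Per the file headers, the deposited spot and background columns are intensity values of Agilent Feature Extraction 10.7.3.1, with no normalization between arrays. The same files hold the authors' log10 ratio (Cy5 to Cy3), corrected for background and dye in the scanner software per the file headers, which served as an alternative. So did the authors' deposited log2 table, whose column medians were 8.97 to 9.02. Its deviations from gene means correlated with the log2 ratios used here at 0.863 to 0.961 across 28706 probes per array, so its direction is that of Cy5, while how it was centred is not stated in any source used here.

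The log2 ratios came from limma 3.58.1 (R 4.3.3): normexp correction of the background (offset 50), loess within arrays with 3671 control spots at weight 0, removal of outlier spots (260 to 355 on an array), and the mean over a probe's spots. Of 55681 probes, 29249 passed the filter, and the brightest probe stood for a gene, which needed values on at least 6 arrays. Names came from RefSeq (GRCm38.p6) for 27235 probes by accession, 3581 by symbol and 565 by synonym, and 24300 kept the name in the files. Probe positions are on mm9 as the files give them, and exon, intron or UTR position was not analysed here. Diet, replicate number with diet, their interaction and slide were fitted with lmFit and eBayes (two-sided, Benjamini-Hochberg over 21477 genes), and the fits were tested on simulated data. Changes with replicate number are given per 10 numbers. Correlations use deviations from the diet means.

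The members and the gene lists were chosen with earlier results of these data known. All 10 members are named, with the 10 genes most and the 5 least like their mean, the 5 most like Lgr5 and like Olfm4, and from each list the 4 genes most like that mean and genes called; 1 result under this rule is not reported here. Genes named outside this rule, such as Lgr4, Lrp6, Fzd7, Ctnnb1, Notum, Sp5, Bmi1 and Hopx, were chosen after their values were seen. Alternatives covered normalization, source of values, probe filter, probe choice, slide, weights, tissue markers as covariates, the replicate block and each mouse left out. The number of arrays limits the precision.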

Additional observations from a re-analysis of the deposited data

How the results depend on the processing

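For diet, 0 of the 10 genes were called under all alternatives run, among them both deposited versions of the authors' values, array weights, the replicate number as a covariate and each mouse left out (0 to 0). For the replicate number, 7 genes were called in the report, and 7 or 8 (the eighth Axin2, or Znrf3 in the Cy5 channel alone) with another normalization, value source, probe filter or probe choice, with slide as a block, within either diet and with each mouse left out (7 to 8, with 5179 to 6308 of all genes). The count was 7 within slide 2 (1226 of all genes called), 0 within slide 1 (12 of all genes) and 0 within slide 3 (0 of all genes). It was also 0 with smooth muscle and acinar means as covariates (30 of all genes) and 0 in mice numbered 5 and above. Within slide 3 the changes of the 7 genes were 0.81 to 1.67 per 10 numbers, within slide 1 they were 0.58 to 0.93 and within slide 2 they were 1.08 to 1.64. The cause of these lost calls was not tested. Slopes that differed between diets were called for 0 of the 10 throughout, with each mouse left out 0 to 0. The median correlation of 0.600 ran from 0.546 to 0.656 with each mouse left out, and over the other alternatives from 0.288 with the mean of a gene's probes to 0.909 for the 7 genes without Axin2, Rnf43 and Znrf3. Whether the replicate numbers pair the mice is not stated in the labels, and correlations over all genes cannot decide it. Deviations of same-numbered mice correlated at -0.345 to 0.391 (median 0.046, above 0.1 in 5 of 11 pairs), and 2 HF mice correlated best with their own number. With the replicate block over the 11 shared numbers, 0 genes were called. Znrf3 was not measured where probes had to be above background on all arrays, which left 9 genes, and its level near background limits what its values can show.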
